A study of Homo sapiens with 12 samples.

Results

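The ZNF genes are the largest group of human genes named for zinc fingers, and they were followed here as a family while human embryonic stem cells (ESCs) differentiated. A gene was a member if its symbol in the platform annotation was ZNF followed by digits only, leaving out ZNF296, and if 4 or more of the 12 arrays detected a probe for it with p under 0.01. That gave 299 members of the 415 ZNF genes named on the array, among 10562 genes kept by the same rule of 18665 named. Of the 299, 148 lie on chromosome 19 and 151 on other chromosomes, with members on 21 chromosomes in all.

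Total RNA was measured on 12 one-colour Illumina HumanWG-6 v3 bead arrays, 4 in each of 3 groups. The first group was undifferentiated SNUhES3, an established human ESC line kept with basic FGF on a layer of STO cells, mouse fibroblasts made unable to divide. The others were embryoid bodies (EBs), floating aggregates made from the same line and kept in that medium without the factor for 1 week or 2 weeks. All 12 arrays come from that line, with no genetic change or drug in any group, and the labels do not state that arrays within a group stem from independent cultures. The p-values therefore refer to array-to-array spread alone, which may be technical.

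Most ZNF genes encode proteins with an array of C2H2 zinc fingers that read DNA, and many also carry a KRAB domain. KRAB binds the scaffold protein TRIM28, which brings in the histone methyltransferase SETDB1 and HP1 proteins, so that the bound DNA is packed into silent chromatin. Many KRAB zinc finger genes arose by tandem duplication, above all in clusters on chromosome 19, and in pluripotent cells a large share of them hold transposable elements silent. Others, without KRAB, act as cofactors of developmental signalling.

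Expression is given as log2 of the background-corrected, quantile-normalized signal of the brightest kept probe of a gene. Levels of different genes come from different probes and are not compared. Differences are means of EB arrays minus means of ESC arrays (or of 2-week minus 1-week EBs) on that log2 scale, with the standard error (SE) of limma's fit over all genes. In what follows a gene rose or fell if its Benjamini-Hochberg adjusted p was under 0.05, and it was called if it also differed at least 2-fold, which is 1 on the log2 scale. The comparisons of 1-week and of 2-week EBs with ESCs share the 4 ESC arrays and are not independent. In bulk RNA, fewer cells of a type and less RNA per cell cannot be told apart.

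The promoters of 5 members that the results turn on are printed first. They show the largest riser (ZNF503), a riser with an ETS-type match (ZNF70), the largest faller at 2 weeks (ZNF398) and 2 chromosome 19 fallers with such matches (ZNF256 and ZNF264). Each is the 250 bases before the transcription start in RefSeq, build GRCh38.p14, read along the gene's strand. Capitals mark matches on either strand to CCGGAAG (the core bound by ETS factors), CCAAT (the box bound by NF-Y) and GGGCGG (the GC box bound by SP1). The matches are letters found in a window and not tested sites.
ZNF503, chr10:75401917-75402166, minus strand: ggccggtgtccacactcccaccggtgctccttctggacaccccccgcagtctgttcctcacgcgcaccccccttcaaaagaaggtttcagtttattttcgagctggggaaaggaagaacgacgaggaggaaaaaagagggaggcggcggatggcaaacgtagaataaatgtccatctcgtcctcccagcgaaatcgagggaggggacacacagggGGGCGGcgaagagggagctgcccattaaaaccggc
ZNF70, chr22:23751113-23751362, minus strand: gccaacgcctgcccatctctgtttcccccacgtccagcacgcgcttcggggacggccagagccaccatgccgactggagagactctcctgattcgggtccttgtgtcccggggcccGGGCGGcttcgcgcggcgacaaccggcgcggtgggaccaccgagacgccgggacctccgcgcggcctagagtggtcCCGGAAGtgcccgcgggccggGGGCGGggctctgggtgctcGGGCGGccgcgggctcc
ZNF398, chr7:149126158-149126407, plus strand: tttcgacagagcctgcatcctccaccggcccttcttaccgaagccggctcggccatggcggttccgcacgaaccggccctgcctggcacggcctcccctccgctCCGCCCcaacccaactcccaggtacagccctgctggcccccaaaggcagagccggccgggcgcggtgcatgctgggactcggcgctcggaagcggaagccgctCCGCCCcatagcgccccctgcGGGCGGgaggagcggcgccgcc
ZNF256, chr19:57947707-57947956, minus strand: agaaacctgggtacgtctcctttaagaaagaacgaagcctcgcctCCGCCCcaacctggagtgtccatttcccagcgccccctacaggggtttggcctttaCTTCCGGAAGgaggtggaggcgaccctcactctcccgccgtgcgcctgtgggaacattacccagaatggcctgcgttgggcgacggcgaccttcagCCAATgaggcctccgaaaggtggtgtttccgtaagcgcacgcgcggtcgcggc
ZNF264, chr19:57191250-57191499, plus strand: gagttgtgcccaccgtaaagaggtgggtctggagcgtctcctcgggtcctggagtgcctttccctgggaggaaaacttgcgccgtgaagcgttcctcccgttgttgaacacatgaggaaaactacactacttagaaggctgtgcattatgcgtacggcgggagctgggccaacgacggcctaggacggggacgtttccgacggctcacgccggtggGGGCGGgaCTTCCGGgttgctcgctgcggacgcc
ZNF256 holds the ETS-type letters on both strands in overlapping positions, beside a CCAAT box, and ZNF264 and ZNF70 hold them at 1 place each. ZNF503 and ZNF398 hold only GC boxes of these 3 motifs within the window.

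Over the family, the promoter table covered 257 of the 299 members with windows of 300 bases (250 before and 50 after the start). CCGGAAG was present in 40.1% of those 257 windows, against 19.2% of the 8643 windows of all genes tested and 10.7% of all 27305 windows in the table. CCAAT was present in 52.1% of member windows, against 37.6% of the windows of genes tested. GGGCGG was present in 64.2% of member windows, against 70.7% of the windows of genes tested. The ETS-type letters were about as frequent in members on chromosome 19 (42.0% of 131) as in members elsewhere (38.1% of 126). Among members called in either EB group, 4 of 13 called higher and 8 of 17 called lower held CCGGAAG, and 4 of 13 and 10 of 17 held CCAAT. These are descriptions over genes, many of which are related copies, and no test was made of them.

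As a family the ZNF genes had medians slightly below those of all genes in each comparison, and these were not tested against each other. The median difference of the 299 members was -0.07 at 1 week, against 0.01 over all 10562 genes. It was -0.12 at 2 weeks, against -0.02 over all genes. From 1 to 2 weeks it was -0.06, against -0.01 over all genes. The 1-week median changed sign, to 0.11 (all genes 0.13), when arrays were scaled to equal medians in place of quantiles. In that scaling the 2-week median was -0.05 (all genes 0.00). The median level of the members lay between 8.88 and 9.04 on the 1-week EB arrays and between 8.86 and 8.96 on the 2-week EB arrays. It was 8.87 to 8.96 on the ESC arrays, so by the median the arrays overlapped. The mean level of the members was 9.12 to 9.19 at 1 week and 9.08 to 9.11 at 2 weeks, against 9.14 to 9.22 in ESCs. By the mean, the 2-week arrays lay below both other groups, and the 1-week arrays overlapped ESCs. The mean over all genes was 9.81 to 9.83 at 1 week and 9.81 to 9.82 at 2 weeks, against 9.74 to 9.76 in ESCs. In 186 members (62.2%) the difference from ESCs was under 0.5 in both EB groups, near the 61.3% of all genes. The adjusted p was passed in neither EB group by 107 members (35.8%), against 30.5% of all genes.

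**Figure D1:**
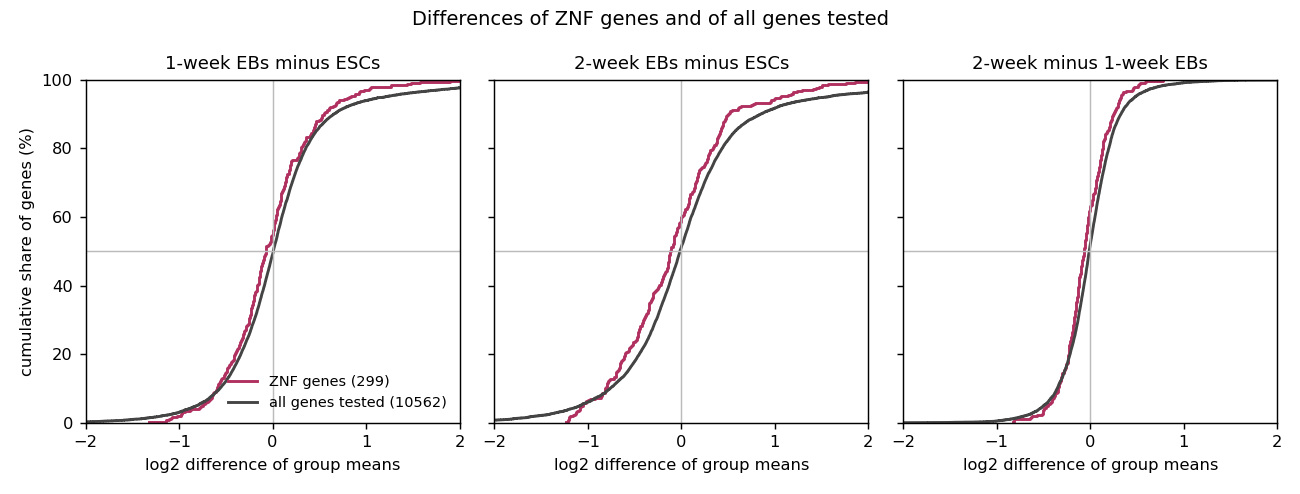
Cumulative share of genes (vertical axis, percent) against the log2 difference of group means (horizontal axis), for the 299 ZNF genes (red) and for all 10562 genes tested (grey), in each of the 3 comparisons. The red curves cross 50% left of the grey ones, at -0.07, -0.12 and -0.06 against 0.01, -0.02 and -0.01.

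By count, the share of members called was below that of all genes on the higher side in each comparison, and on the lower side it was below at 1 week and near at 2 weeks. These shares were not tested against each other. The members' probes were dimmer, with a median level of 8.86 to 9.04 per array, against 9.63 to 9.68 over all genes. The processing shrinks differences of dim probes, and the part of brightness in these shares was not tested. At 1 week 9 of 299 (3.01%) were called higher and 6 (2.01%) lower, where 6.09% and 3.07% of all genes were. At 2 weeks 17 (5.69%) were called higher and 19 (6.35%) lower, where 8.27% and 6.02% of all genes were. No member was called between 2-week and 1-week EBs, where 0.881% of all genes were higher and 0.502% lower by limma, although 15 rose and 42 fell by the adjusted p alone. At an unadjusted p under 0.05 the members numbered 30 higher and 64 lower in that comparison, and with the 2-fold minimum the authors' deposited log2 table gave 0 higher and 1 lower.

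Without the 2-fold minimum, 66 members (22.1%) rose and 77 (25.8%) fell at 1 week, against 27.1% and 24.8% of all genes. At 2 weeks 70 (23.4%) rose and 105 (35.1%) fell, against 30.7% and 31.8% of all genes. Between the EB groups 5.02% of members rose and 14.0% fell, against 12.4% and 14.1% of all genes. In ESCs and in 1-week EBs, arrays 1 and 2 resembled each other, as did arrays 3 and 4. Across the members, which are not independent replicates, r was 0.996 to 0.997 within such pairs and 0.985 to 0.986 between them in 1-week EBs, and 0.994 to 0.997 within and 0.977 to 0.981 between in ESCs. In 2-week EBs arrays 3 and 4 were a close pair (r = 0.996) and arrays 1 and 2 were not (r = 0.988), with 0.986 to 0.993 between the pairs. The labels do not say what the pairs share. With each pair averaged into 1 value, 43 rose and 39 fell at 1 week, 47 rose and 69 fell at 2 weeks, and 3 rose and 6 fell between the EB groups, while the counts called stayed at 9 and 6, 17 and 19, and 0 and 0.

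The rule also fixed part of this picture. Of the 299 members, 240 were detected on all 12 arrays and 14 on no ESC array, and those 14 could enter only through EB arrays. Among the 240, 2 were called higher and 5 lower at 1 week, and 6 higher and 15 lower at 2 weeks. Those are 0.833% and 2.08% at 1 week and 2.5% and 6.25% at 2 weeks, where 2.48% and 1.81%, and then 4.28% and 4.02%, of the 8847 genes detected on all 12 arrays were called. Of the 17 members called higher at 2 weeks, 8 were undetected on every ESC array and 3 were detected on some. At the edge of the rule, the 4 members detected on exactly 4 arrays (ZNF25, ZNF397, ZNF436 and ZNF782) had mean levels of 6.40 to 6.82. The 8 ZNF genes detected on exactly 3 arrays, left out here, had mean levels of 6.60 to 6.79.

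In all, 38 members were called in at least 1 EB group, 17 higher and 21 lower. Of these, 15 were called at 1 week, 36 at 2 weeks and 13 at both. In every called member the 4 EB arrays did not overlap the 4 ESC arrays, which a call made on these same arrays renders likely. At 2 weeks 20.4% of the 299 members lay wholly above ESCs and 30.1% wholly below, against 27.5% and 28.1% of all genes. At 1 week it was 21.4% and 22.4% of members, against 25.4% and 23.1% of all genes. On the brightest probes the risers reached larger differences than the fallers. Sizes ran from 1.00 to 3.44 among the 17 called higher at 2 weeks and from 1.02 to 1.23 among the 19 called lower. Of those 17, 8 were undetected on every ESC array. In 4 members another kept probe differed by over 1 from the chosen one at 2 weeks. Those other probes gave -2.84 (ZNF483), -1.72 (ZNF322), -1.72 (ZNF669) and -1.55 (ZNF577).

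**Figure D2:**
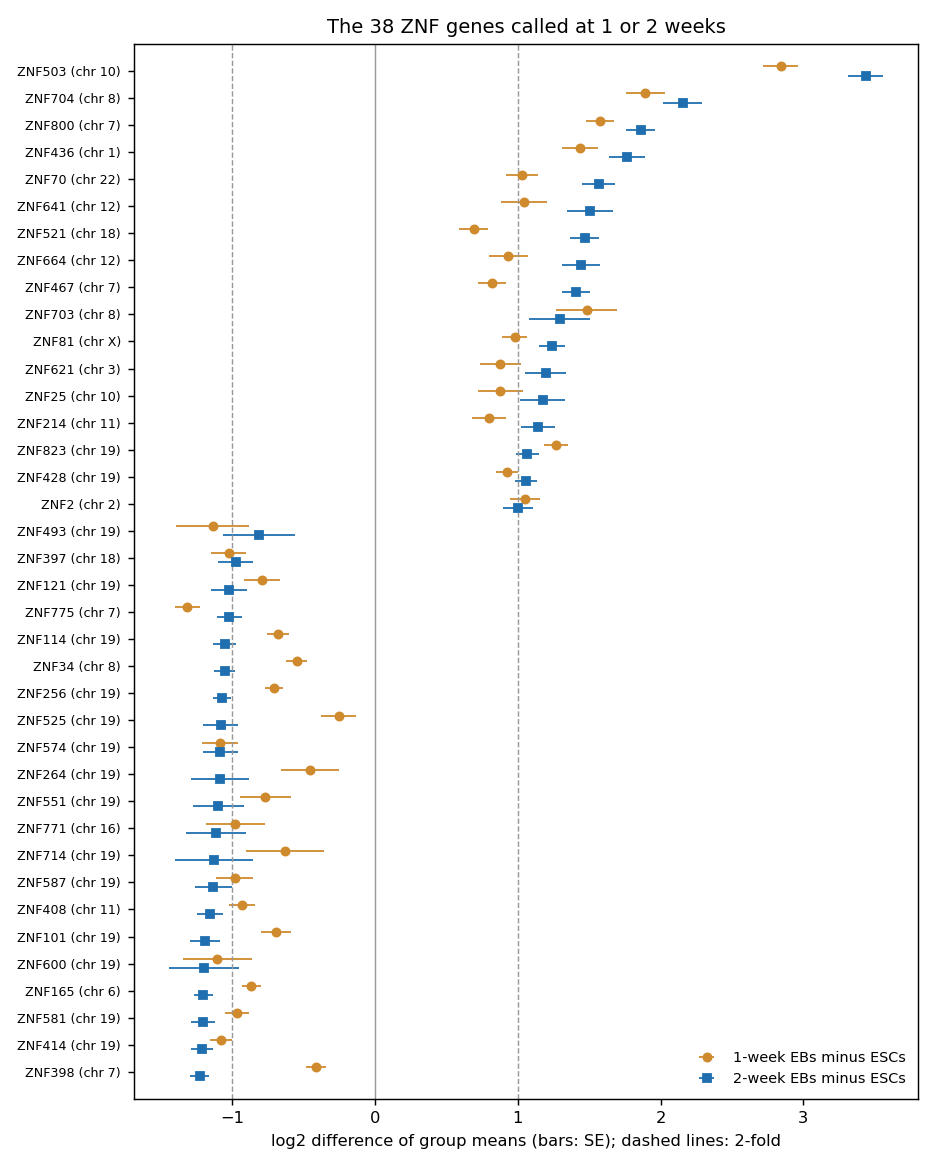
Log2 difference of EB minus ESC group means (horizontal axis, bars SE of the fit) for the 38 ZNF genes called at 1 or 2 weeks, ordered by the 2-week difference, with circles for 1-week EBs and squares for 2-week EBs. Dashed lines mark 2-fold. ZNF503 stands apart at 3.44 and no faller is below -1.32.

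ZNF503, which encodes a transcriptional repressor known in mouse as Nolz1 for its part in the developing striatum, rose most. Its levels were 7.15, 7.29, 7.33 and 7.53 on the ESC arrays, 9.93, 9.93, 10.35 and 10.45 on the 1-week EB arrays and 10.70, 10.83, 10.78 and 10.73 on the 2-week EB arrays. The 3 groups did not overlap. Relative to ESCs it was higher by 2.84 (SE 0.12, adjusted p = 1.96e-10) at 1 week and 3.44 (SE 0.12, adjusted p = 1.61e-11) at 2 weeks, a 10.8-fold rise at 2 weeks. ZNF703, a closely related repressor, was undetected on all 4 ESC arrays and detected on 3 of 4 arrays in each EB group, with mean levels of 7.21 ± 0.49 and 7.03 ± 0.30 (SD, n = 4) at 1 and 2 weeks. Its probe read 5.73 ± 0.23 in ESCs, which is below background, so that only a bound of at least 1.09-fold can be given at 1 week and no fold at 2 weeks, beside adjusted p = 6.21e-05 and 0.000135. The 2-week call of ZNF703 was lost in the authors' deposited log2 table, with adjusted p = 0.0998.

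A related pair of genes encodes ZNF521 and ZNF423, long proteins that bind EBF and SMAD factors and that in mouse take part in neural commitment of ES cells (Zfp521) and in preadipocyte commitment (Zfp423). ZNF521 read 9.31, 9.19, 9.26 and 9.27 in ESCs, 9.78, 9.72, 10.07 and 10.22 in 1-week EBs and 10.68, 10.72, 10.66 and 10.84 in 2-week EBs. The groups did not overlap at any step. The difference was 0.69 (SE 0.10, adjusted p = 6.66e-05) at 1 week and 1.47 (SE 0.10, adjusted p = 2.16e-08) at 2 weeks. Its difference between 2-week and 1-week EBs, 0.78, was the largest rise of any member in that comparison (adjusted p = 0.000105). ZNF423 also rose, by less than 2-fold: 0.64 (SE 0.13, adjusted p = 0.000902) at 1 week and 0.95 (SE 0.13, adjusted p = 2.13e-05) at 2 weeks, with 0.47 on its other kept probe at 2 weeks.

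ZNF467, whose mouse counterpart Zfp467 favours adipocyte over osteoblast fate, read 7.11, 7.59, 7.45 and 7.50 in ESCs, 8.16, 8.23, 8.25 and 8.29 in 1-week EBs and 8.96, 8.68, 8.72 and 8.90 in 2-week EBs. Each group lay above the one before it. The difference was 0.82 at 1 week and 1.41 at 2 weeks (SE 0.10 for both, adjusted p = 1.31e-05 and 3.11e-08), and 0.59 between the EB groups (adjusted p = 0.000803). ZNF621 rose by 0.88 at 1 week and 1.19 at 2 weeks (SE 0.14 for both).

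Several risers were near or below background in ESCs, so their folds are bounds. ZNF800, described in human gut organoids as a repressor of endocrine differentiation, was undetected on the 4 ESC arrays and read up to 8.21 at 1 week and 8.21 to 8.54 at 2 weeks, at least 2.04-fold and 2.49-fold higher than in ESCs (adjusted p = 1.53e-08 and 1.62e-09). ZNF704 was likewise undetected in ESCs and read no lower than 7.77 at 1 week and 8.04 at 2 weeks, at least 1.75-fold and 2.09-fold higher (adjusted p = 6.66e-08 and 9.9e-09). Bounds for ZNF2 and ZNF81 were at least 1.5-fold and 1.63-fold at 2 weeks. ZNF436, ZNF25 and ZNF214 were also undetected in ESCs and stayed close to background, with 2-week means of 7.09, 6.97 and 7.23. In contrast ZNF70, ZNF641 and ZNF664 were detected on 3, 3 and 2 ESC arrays and differed by 1.57, 1.51 and 1.44 at 2 weeks, with SE from 0.11 to 0.16.

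Of the 148 members on chromosome 19, 2 were called higher at 2 weeks. ZNF823 read 8.68, 8.63, 8.81 and 8.62 in ESCs, 9.94, 9.99, 10.02 and 9.86 at 1 week and 9.72, 9.97, 9.62 and 9.69 at 2 weeks. Both EB groups lay above ESCs and overlapped each other. The differences from ESCs were 1.27 at 1 week and 1.07 at 2 weeks (SE 0.08 for both, adjusted p = 1.86e-08 and 7.24e-08). ZNF428 rose by 0.93 at 1 week and 1.06 at 2 weeks (SE 0.08 for both, adjusted p = 2.5e-07 and 3.64e-08). ZNF25, ZNF214 and ZNF428, like ZNF256, ZNF121, ZNF34 and ZNF43 among the fallers, are named outside the rule for named genes, after their values were seen.

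**Figure D3:**
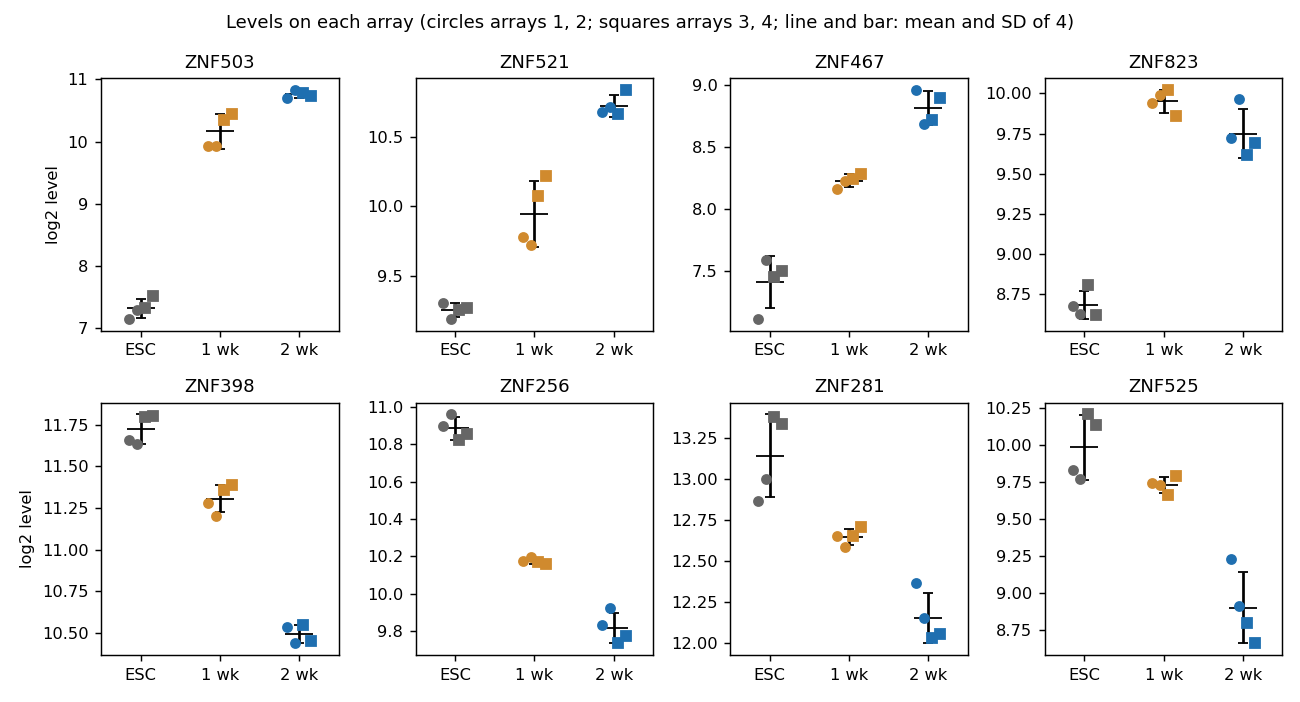
Log2 level (vertical axis, a separate scale for each gene) of 8 ZNF genes on every array of the ESC, 1-week and 2-week EB groups. Circles are arrays 1 and 2, squares arrays 3 and 4, and the line and bar give the mean and SD of 4. ZNF503, ZNF521 and ZNF467 step up through both weeks, ZNF823 is highest at 1 week, and ZNF525 is lower at 2 weeks only.

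Among the fallers, the size at 2 weeks was largest for ZNF398, which encodes a factor reported in human pluripotent cells to support the pluripotent state downstream of TGF-beta signalling. It read 11.66, 11.63, 11.80 and 11.80 in ESCs, 11.28, 11.20, 11.36 and 11.39 at 1 week and 10.53, 10.44, 10.55 and 10.45 at 2 weeks. The groups were apart at both steps. It fell by 0.42 at 1 week (SE 0.07, adjusted p = 0.000212) and by 1.23 at 2 weeks (SE 0.07, adjusted p = 2.59e-09), a level 2.35-fold lower than in ESCs, and 0.81 of that lay between the EB groups (adjusted p = 3.81e-06).

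ZNF281, a factor that binds GC-rich DNA and whose mouse counterpart Zfp281 interacts with OCT4 and NANOG, came just short of a call. Its levels were 12.86 to 13.38 in ESCs, 12.65, 12.59, 12.65 and 12.71 at 1 week and 12.36, 12.15, 12.03 and 12.05 at 2 weeks. The 3 groups did not overlap, and it fell by 0.50 (SE 0.11, adjusted p = 0.00241) at 1 week and by 1.00 (SE 0.11, adjusted p = 4.14e-06) at 2 weeks, 1.99-fold. ZNF143, a general activator of promoters, fell by 0.22 at 1 week and by 0.65 at 2 weeks (SE 0.08 for both, adjusted p = 0.04 and 1.15e-05). ZNF589, known from human blood stem cells, fell by 0.32 and then 0.67 (SE 0.10, adjusted p = 0.0186 and 7.12e-05).

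ZNF165, a SCAN-domain gene known as a cancer-testis antigen, fell with little spread. It read 10.51 to 10.61 in ESCs, 9.63 to 9.77 at 1 week and 9.26 to 9.45 at 2 weeks, differences of -0.87 and -1.20 from ESCs (SE 0.07 for both, adjusted p = 8.9e-08 and 1.63e-09). ZNF408, which is known from inherited disease of the retinal vessels, fell by 0.93 and then 1.16 (SE 0.09, adjusted p = 1.2e-06 and 7.65e-08). ZNF775 had the largest fall at 1 week, -1.32 (SE 0.09, adjusted p = 2.53e-08), and differed by -1.02 at 2 weeks. ZNF397 was detected on all 4 ESC arrays and on no EB array, at least 1.59-fold lower at 1 week and 1.47-fold lower at 2 weeks.

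Of the 19 members called lower at 2 weeks, 13 lie on chromosome 19. ZNF414 and ZNF581 were already down at 1 week: ZNF414 by 1.08 and ZNF581 by 0.97, against 1.21 for each at 2 weeks, with SE of 0.08 and 0.09. ZNF256 read 10.90, 10.96, 10.82 and 10.86 in ESCs, 10.17, 10.20, 10.17 and 10.16 at 1 week and 9.83, 9.92, 9.74 and 9.77 at 2 weeks, and the 3 groups were apart. Its fall was 0.71 at 1 week and 1.07 at 2 weeks (SE 0.06 for both, adjusted p = 5.38e-07 and 4.26e-09). ZNF525 changed mainly in the second week: the difference from ESCs was -0.25 at 1 week (adjusted p = 0.0983) and -1.08 at 2 weeks (adjusted p = 4.03e-06). Between the EB groups it fell by 0.83 (SE 0.12, adjusted p = 0.000292), the largest fall of any member in that comparison, ahead of ZNF442 (-0.82) and ZNF398.

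Some of these falls differed in size between the array pairs. ZNF600 read 9.32, 9.29, 10.26 and 10.24 in ESCs, 8.37, 8.24, 9.04 and 9.02 at 1 week and 8.35, 8.70, 8.63 and 8.63 at 2 weeks. Arrays 3 and 4 lay above arrays 1 and 2 in ESCs and in 1-week EBs, and the difference at 2 weeks was -1.20 with an SE of 0.24 (adjusted p = 0.000745). ZNF264 read 8.95, 8.83, 9.90 and 9.85 in ESCs and 8.23 to 8.36 at 2 weeks, a difference of -1.09 (SE 0.20, adjusted p = 0.000377). ZNF493 read 9.40, 9.47, 10.66 and 10.55 in ESCs and 8.64 to 9.22 at 1 week, a difference of -1.14 (SE 0.25, adjusted p = 0.00195). With ESC array 3 left out, and also with ESC array 4 left out, ZNF493 and ZNF600 were no longer called at 1 week, nor ZNF264, ZNF551, ZNF714, ZNF121 and ZNF2 at 2 weeks. Over the family, arrays 1 and 2 did not overlap arrays 3 and 4 in 195 members (65.2%) in 1-week EBs, in 130 (43.5%) in 2-week EBs and in 195 (65.2%) in ESCs, where the shares over all genes were 62.4%, 45.4% and 66.7%. The gap of means was also over 0.5 in 26 members (8.70%) in 1-week EBs, 5 (1.67%) in 2-week EBs and 53 (17.7%) in ESCs, against 4.01%, 2.22% and 10.5% of all genes. What separates the pairs was not tested.

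The counts were also taken separately for chromosome 19, which holds the large ZNF clusters. On it, 28 of 148 members (18.9%) rose and 59 (39.9%) fell at 2 weeks, against 42 (27.8%) and 46 (30.5%) of the 151 members on other chromosomes. With the 2-fold minimum, 2 were called higher and 13 lower on chromosome 19, against 15 higher and 6 lower elsewhere. As shares that is 1.35% and 8.78% of the chromosome 19 members, where 13 (2.15%) of the 604 other genes of chromosome 19 were called higher and 70 (11.6%) lower. At 1 week 30 rose and 37 fell on chromosome 19, against 36 and 40 elsewhere. With equal medians the chromosome 19 counts turned to 41 up and 24 down at 1 week and were 30 up and 53 down at 2 weeks. The median difference of the 148 was -0.09 at 1 week (0.09 with equal medians) and -0.15 at 2 weeks, and that of the 151 was -0.05 and -0.08.

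Among the other genes of chromosome 19, fallers also outnumbered risers at both times. Of the 604 that are not members, 59 (9.77%) rose and 297 (49.2%) fell at 1 week, and 100 (16.6%) rose and 283 (46.9%) fell at 2 weeks, with medians of -0.24 and -0.21. With equal medians 71 rose and 156 fell at 1 week and 83 rose and 227 fell at 2 weeks, with medians of -0.14 and -0.19. Between the EB groups 1 of the 148 ZNF genes of chromosome 19 rose and 27 (18.2%) fell, while 95 of the 604 other genes (15.7%) rose and 71 (11.8%) fell. With equal medians the other genes turned to 24 up and 64 down, and the members were 0 up and 26 down. Among the 151 ZNF genes elsewhere, with quantiles, 14 rose and 15 fell. With array pairs averaged, the counts between the EB groups for chromosome 19 members were 0 up and 4 down, and 0 up and 3 down in the authors' deposited log2 table. These differences between gene sets were not tested.

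**Figure D4:**
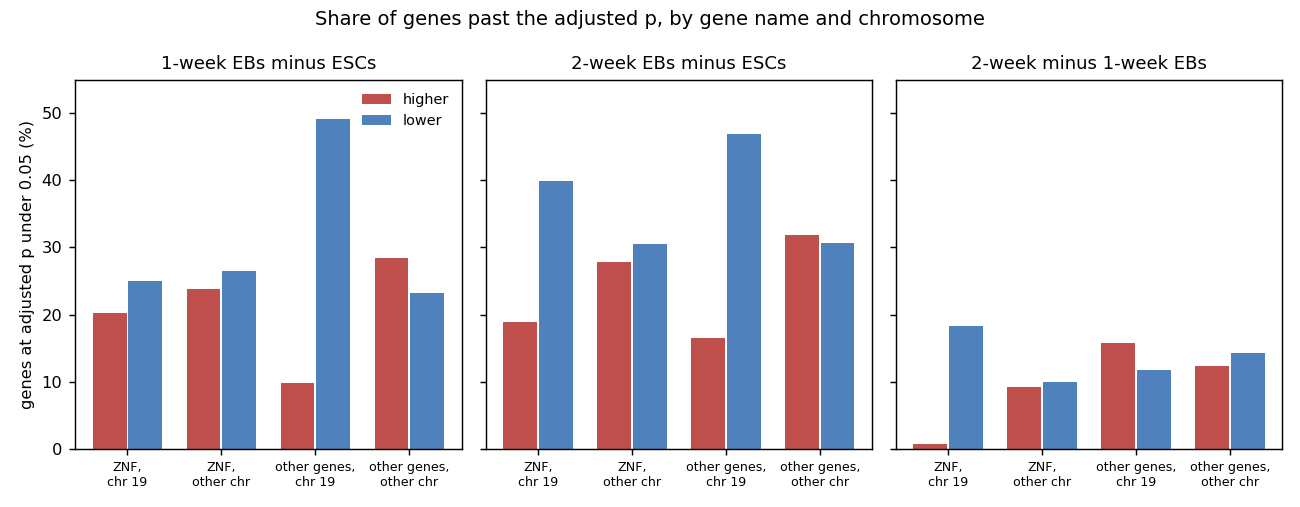
Share of genes past the adjusted p (vertical axis, percent), higher in red and lower in blue, for the 148 ZNF genes of chromosome 19, the 151 ZNF genes elsewhere, the 604 other genes of chromosome 19 and the 9659 remaining genes (5 of these had no chromosome matched), in each comparison. Lower genes outnumber higher ones on chromosome 19 in both EB groups, for ZNF genes most clearly at 2 weeks (39.9% against 18.9%).

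The mean over the chromosome 19 members showed the same order by array. It was 9.12 to 9.21 on the 1-week EB arrays and 9.04 to 9.05 on the 2-week EB arrays, against 9.18 to 9.30 on the ESC arrays. The 2-week arrays did not overlap either other group, and the 1-week arrays overlapped ESCs. For members on other chromosomes the means were 9.13 to 9.17 at 1 week and 9.12 to 9.17 at 2 weeks, against 9.10 to 9.15 in ESCs, and all groups overlapped. The other genes of chromosome 19 stood at 9.68 to 9.73 at 1 week and 9.71 to 9.74 at 2 weeks, against 9.97 to 10.01 in ESCs.

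**Figure D5:**
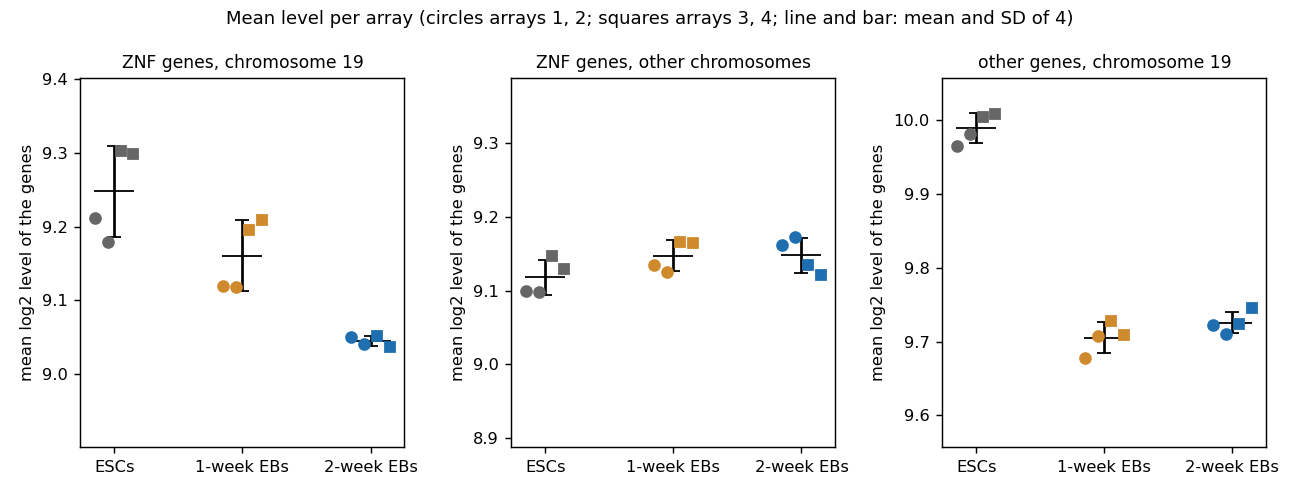
Mean log2 level per array (vertical axes, each spanning the same width) for 148 ZNF genes of chromosome 19, 151 ZNF genes of other chromosomes and 604 other genes of chromosome 19, in ESCs, 1-week and 2-week EBs. Circles are arrays 1 and 2, squares arrays 3 and 4, with the mean and SD of 4. The chromosome 19 ZNF means are lowest in 2-week EBs, at 9.04 to 9.05, and the other chromosome 19 genes step down by 1 week and not further.

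Along chromosome 19 the members fall into 17 runs, taken as neighbouring members with at most 10 protein-coding genes between them in RefSeq order. ZNF114 and ZNF473 had no such neighbour and each count as a run of 1 member. The counts by run stand beside 30.7% of all genes that rose and 31.8% that fell at 2 weeks. Among the 604 other genes of chromosome 19 it was 16.6% and 46.9%. At 1 week the shares were 27.1% and 24.8% of all genes, and 9.77% and 49.2% of those 604. No run was tested against these shares. In the run of 15 members from ZNF101 to ZNF43, none rose and 9 fell at 2 weeks, with a median difference of -0.60 (-0.35 at 1 week). That run holds ZNF93, which restrains LINE-1 elements and fell by 0.37 at 1 week and 0.60 at 2 weeks (SE 0.07 for both, adjusted p = 0.00039 and 3.2e-06), and ZNF43, which fell by 0.80 at 2 weeks. In the run of 10 from ZNF414 to ZNF562, 1 rose and 6 fell, with a median of -0.47. In the run of 15 from ZNF653 to ZNF791, which holds ZNF823, 6 rose and 1 fell at 1 week and 4 rose and 6 fell at 2 weeks.

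The longest runs were near balance or tilted down by count: from ZNF470 to ZNF544, 28 members, 6 rose and 9 fell at 2 weeks, and from ZNF175 to ZNF331, 26 members, 1 rose and 8 fell. In the run of 14 from ZNF576 to ZNF285, 6 rose and 3 fell, with a median of 0.19. The 13 members from ZNF565 to ZNF573 had 1 riser and 5 fallers. A short run stood out on the other side and is named after its values were seen: ZNF302, ZNF181, ZNF30 and ZNF792, all 4 of which rose at both times, by 0.40 to 0.49 at 2 weeks (adjusted p from 0.00127 to 0.0137). Neighbouring ZNF genes are often close copies, and probes can read related transcripts, so members of a run are not independent.

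Among members with a described role, 24 of the 29 named on the array were kept. By the adjusted p, 6 of the 24 rose and 7 fell at 1 week, where 27.1% and 24.8% of all genes did. At 2 weeks 5 rose and 9 fell, where 30.7% and 31.8% of all genes did. With the 2-fold minimum, 2 were called higher and 0 lower at 1 week, where 6.09% and 3.07% of all genes were. At 2 weeks 3 were called higher and 1 lower, where 8.27% and 6.02% of all genes were. All those called are described above. These counts of members with a described role were not tested against the shares over all genes. Of those that act on transposable elements, ZNF91, which represses SVA elements, differed by -0.26 at 1 week and -0.36 at 2 weeks (SE 0.18 for both, adjusted p = 0.243 and 0.0997) with ESC arrays from 11.30 to 12.18. ZNF649, which binds LINE-1 elements, was higher at 1 week and lower at 2 weeks: 11.92, 11.71, 11.69 and 11.62 in ESCs, 12.03, 12.01, 12.02 and 12.14 in 1-week EBs and 11.43, 11.51, 11.50 and 11.27 in 2-week EBs. The 3 groups did not overlap, with differences from ESCs of 0.31 and -0.31 (SE 0.08, adjusted p = 0.00523 and 0.00417) and of -0.62 between the EB groups (adjusted p = 9.87e-05).

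ZNF274, which binds the coding ends of other zinc finger genes and brings SETDB1 to them, differed by -0.09 and -0.11 (SE 0.10, adjusted p = 0.446 and 0.359). ZNF10, the source of the KRAB domain used in engineered repressors, rose by 0.36 at 1 week (adjusted p = 0.0313) and differed by 0.18 at 2 weeks (adjusted p = 0.231). ZNF207, which acts at the mitotic spindle, rose by 0.28 at 2 weeks and ZNF195 fell by 0.47. ZNF462, linked to a human developmental syndrome, fell by 0.42 at 2 weeks (adjusted p = 0.0446), with ESC arrays from 12.56 to 13.48. ZNF217, ZNF148, ZNF219, ZNF24, ZNF384 and ZNF711 passed in neither week, with differences between -0.20 and 0.14.

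More than 1 probe was kept for 55 members, and the probes of a gene could disagree. In 4 of the 55 another probe differed by over 1 from the chosen one at 2 weeks. ZNF483 differed by -0.84 on the chosen probe (SE 0.25, adjusted p = 0.00912) and by -2.84 on its other probe. For ZNF322, whose mouse counterpart Zfp322a acts with OCT4 and SOX2 targets in ES cells, the values were -0.14 (adjusted p = 0.495) and -1.72. ZNF577 gave -0.42 and -1.55, and ZNF669 gave -0.64 and -1.72. In 11 of the 55 members the other probe had the opposite sign at 2 weeks.

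The partners of KRAB proteins differed by less than 2-fold on the brightest probe of each. Of 25 co-repressor genes named on the array 22 were kept, and none was called by limma in either week, while by the adjusted p 9 (40.9%) rose and 4 (18.2%) fell at 1 week and 7 (31.8%) rose and 6 (27.3%) fell at 2 weeks, where 27.1% and 24.8% of all genes did at 1 week and 30.7% and 31.8% at 2 weeks. At an unadjusted p under 0.05 the counts were 9 and 5 at 1 week and 8 and 6 at 2 weeks. TRIM28 read 11.20, 11.54, 11.24 and 11.17 in 2-week EBs, against 11.59, 11.55, 11.91 and 11.92 in ESCs, a fall of 0.45 (SE 0.13, adjusted p = 0.00643). EHMT1, a histone methyltransferase, differed by -0.04 at 2 weeks and 0.13 at 1 week, with -0.71 and -1.31 on its other kept probe. SETDB1 differed by 0.17 at 2 weeks (adjusted p = 0.0737). The HP1 genes went different ways at 2 weeks: CBX1 rose by 0.93 (adjusted p = 8.06e-07), CBX3 fell by 0.84 (adjusted p = 1.94e-05), with -1.75 on its other kept probe, and CBX5 fell by 0.39 (adjusted p = 0.0122). Of the HUSH complex, which spreads silent chromatin, PPHLN1 fell by 0.75 (its 3 other kept probes lay between -0.54 and -0.08) and MPHOSPH8 by 0.58, while TASOR rose by 0.52. UHRF1, which maintains DNA methylation with DNMT1, rose by 0.97 (adjusted p = 8.6e-08).

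Other zinc finger genes with numbered names (ZFP, ZSCAN, ZKSCAN and ZBTB) gave 56 kept genes. Of these 18 (32.1%) rose and 10 (17.9%) fell at 1 week, against 27.1% and 24.8% of all genes. At 2 weeks 18 (32.1%) rose and 19 (33.9%) fell, against 30.7% and 31.8%. With the 2-fold minimum 2 (3.57%) were called higher and 2 (3.57%) lower at 2 weeks, against 8.27% and 6.02% of all genes.

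The labelled cell types were checked against marker genes. All 9 pluripotency genes kept, among them POU5F1, NANOG and SOX2, were detected on every array. Their mean level was 13.54 to 13.68 on the 1-week EB arrays and 13.28 to 13.35 on the 2-week EB arrays, against 13.72 to 13.78 on the ESC arrays. None was called by limma, and 1 fell at 1 week and 7 at 2 weeks, as many as at an unadjusted p under 0.05. Markers of other cell types moved between ESCs and the EB groups, and so with the ZNF differences from ESCs above. Between the EB groups fewer did so. There 6 of 8 mesenchyme genes and 2 of 6 liver and yolk sac genes rose. So did 1 of 6 neural progenitor genes and 0 of 3 cardiomyocyte genes, and none of these markers fell. Liver and yolk sac genes were called higher in 6 of 6 at both times, with means of 11.28 to 11.35 and 11.51 to 11.79 on the 1-week and 2-week EB arrays, against 5.63 to 5.89 on the ESC arrays, where AFP was the only one detected.

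Mesenchyme genes were called higher in 6 of 8, with means of 11.91 to 12.31 and 12.70 to 12.73, against 7.55 to 7.90 in ESCs. In ESCs COL3A1, LUM, DCN and POSTN were undetected. By the adjusted p 1 of the 8 fell at each time, and the lowest differences were -0.26 at 1 week and -0.35 at 2 weeks. Of 7 neural progenitor genes named on the array 6 were kept. Of these 3 were called higher at 1 week and 4 at 2 weeks, while 1 fell at 1 week, by 0.35. Their means were 8.62 to 9.21 and 9.38 to 9.46, against 7.16 to 7.35 in ESCs. Of 5 cardiomyocyte genes named on the array 3 were kept, and 2 of these were called higher at both times. The other kept gene differed by -0.08 at 1 week and -0.18 at 2 weeks. Means of the 3 were 9.24 to 9.37 and 9.16 to 9.54, against 6.16 to 6.26 in ESCs. Of 6 proliferation genes none was called by limma, and BUB1 fell in both weeks and was the 1 gene at an unadjusted p under 0.05. The part of cell composition in the ZNF differences was not tested.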

How the data were processed

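Expression was measured on 12 bead arrays, 4 per group. The authors deposited a table of probe intensity on a linear scale, not normalized between arrays, and beside it each probe's detection p-value, per the file headers. The authors also deposited a table of log2 values, whose making is not given in the sources used here and which served as an alternative. Every per-sample column was used (0 were left out). Mean intensity per array ran from 718 to 1092 and detected probes from 14045 to 15905 of 48803; the number of arrays limits the precision.

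Signals were corrected with neqc of limma 3.58.1 in R 4.3.3 (offset 16, background from the detection p-values), quantile normalized and put on the log2 scale, which removes any shift common to most genes and shrinks differences of dim probes. Of 48803 probes 27578 had 1 symbol in the platform annotation, 13 several and 21212 none. Probes at detection p under 0.01 on 4 or more arrays were kept and the brightest stood for its gene. All 299 members were matched by Entrez ID to RefSeq (GRCh38.p14). lmFit and eBayes were fitted on all 12 arrays, two-sided, with Benjamini-Hochberg adjustment over 10562 genes. The fit was also run on simulated data in which the arrays were independent. The array pairs here had a consensus correlation of 0.544, so that run cannot show the error rates for these arrays. A gene undetected on every array of a group has a bound, from the higher of its own value and the lowest detected value on each array. Replicate numbers come from the titles. Deviations of same-numbered arrays correlated at 0.138 to 0.245 between 1-week EBs and ESCs. Differently numbered arrays within 1 and 2, or within 3 and 4, correlated about as much, at 0.121 to 0.251. The replicate number is therefore not shown to be a pairing, and the main fit held no block for it. Same-numbered arrays correlated at -0.04 to 0.06 between 2-week EBs and ESCs and at -0.09 to 0.14 between the EB groups.

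The members and lists were chosen with earlier results of these data known. Named are called members, up to 12 per direction and comparison, the 5 largest changes each way per comparison past the adjusted p, and members with a described role. The alternatives tried were equal medians, offset 50, the deposited log2 table, the mean over probes, other detection filters, symbols with letters, no fold minimum, the replicate number as a block, array pairs averaged or as a random block, fits of 2 groups and leaving out each array. A split by KRAB domain and finger number was planned and not made, since no protein sequences were used here.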

Additional observations from a re-analysis of the deposited data

Results flagged for a closer look

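Among 183 groups of 4 arrays (61 named members in 3 groups), 5 held an array far from the other 3; over all members it was 32 of 897 groups. Chance alone gives about 1 group in 20, so neither count is above that. The 32 were not spread evenly over the arrays: 13 were on ESC array 2 and 7 on 2-week EB array 2, and the reason was not tested. Among the named members, ESC array 2 was the one apart in 4 cases. ZNF219 read 10.7508 there and 10.66 to 10.68 on the other ESC arrays, and ZNF775 read 10.7113, with 10.58 to 10.60 on the others. ZNF800, undetected in ESCs, read 6.80665 on array 2 and 6.42 to 6.49 on the others. ZNF384 was lower on array 2, at 8.50558, with 8.76 to 8.81 on the others. In 1-week EBs, ZNF34 read 8.70837 on array 4 and 8.83 on each of the others.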

How the results depend on the processing

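With arrays scaled to equal medians, the medians over all genes shifted to 0.13 at 1 week, 0.00 at 2 weeks and -0.12 between the EB groups, members called higher and lower at 1 week numbered 15 and 1, and the member medians were 0.11 at 1 week, -0.052 at 2 weeks and -0.17 between the EB groups. In that scaling the share of higher genes among all called was 78.1% at 1 week (66.5% with quantiles), 63.5% at 2 weeks (57.9%) and 45.1% between the EB groups (63.7%). With an offset of 50, 5 were called higher and 3 lower at 1 week and 11 lower at 2 weeks. In the authors' deposited log2 table, 3 were called higher and 2 lower at 1 week, 11 higher and 10 lower at 2 weeks and 1 lower between the EB groups, with medians of -0.050 at 1 week and 0.000691 between the EB groups. Over genes detected on all 12 arrays, which leaves out genes near background in a group, 2 were called higher at 1 week and 6 at 2 weeks, and the 1-week median was -0.092. Without a detection filter the medians were -0.015 at 1 week, -0.048 at 2 weeks and -0.041 between the EB groups. The adjusted p alone, by construction, gave 66 higher and 77 lower at 1 week, 70 and 105 at 2 weeks and 15 and 42 between the EB groups. Elsewhere the cause of these shifts was not tested. The member median stayed below that of all genes in every setting tried. With the replicate number as a block, the counts called were 9 and 6, 17 and 19, and 0 and 0. That block changed no call, and by the adjusted p alone 88 members fell at 1 week. Leaving out 1 array, 7 to 11 were called higher and 5 to 8 lower at 1 week, with medians of -0.071 to -0.046, 16 to 18 higher and 15 to 22 lower at 2 weeks, with medians of -0.12 to -0.09, and 0 between the EB groups, with medians of -0.07 to -0.05. Calls that were also lost on leaving out 1 array were, at 1 week, ZNF641 (ESC array 1 or 2), ZNF2 and ZNF70 (ESC array 4), ZNF600 (EB array 2), ZNF397 (EB array 3 or 4) and ZNF70 (EB array 4), and at 2 weeks ZNF2 and ZNF775 (ESC array 2, EB array 3 or 4), ZNF121 (EB array 1 or 4), ZNF771 and ZNF823 (EB array 2) and ZNF574 (EB array 4). Over the settings that measured them, 4 of 15 calls at 1 week and 15 of 36 at 2 weeks held in each, and 15 of 15 and 35 of 36 stayed past the adjusted p, the exception being ZNF703. Dim probes limit the measured size of differences near background.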
